A study of Mus musculus with 36 samples.

Results

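Newborn mouse brain was examined for 4 genes: Cacna1c, Cacna2d1 and Cacna2d2, which encode subunits of voltage-gated calcium channels, and Sv2a, which encodes a glycoprotein of synaptic vesicles. They are 4 of 8127 genes that could be named on the Illumina Sentrix Mouse-6 arrays of the study, and 5 of the 46116 probes of each array belong to them. A probe was taken as belonging to a gene where the number in its ID is the NCBI Gene ID of that gene. The 4 genes were picked because of their differences between lines in these same 18 brains, so those differences are given below as a description, with standard errors and without p-values.

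The study was concerned, by its title, with Rnf41 and its link to anxiety, depression and carboline-induced seizures, and its newborn arrays set the whole brains of 3 lines side by side. Of these, A/J and B6 are inbred mouse strains. The remaining line, labelled C10 congenic, is written A.B6chr10 in the series text. Under standard congenic nomenclature that name stands for A/J mice that carry B6 material on chromosome 10, and the sources used here do not say how far the material extends. All mice were at postnatal day 0.5, no treatment is named for them, no transgene or induced mutation is named for any line, and their sex is not given. Each line is represented by 6 brains, and the RNA of 1 brain was hybridised to 1 array, with no pooling. None of the 4 genes lies on chromosome 10 in the reference gene table: Cacna1c is on chromosome 6, Cacna2d1 on chromosome 5, Cacna2d2 on chromosome 9 and Sv2a on chromosome 3.

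A voltage-gated calcium channel is built around a pore-forming subunit, which opens when the membrane is depolarised and lets calcium into the cell. Cacna1c encodes the pore of an L-type channel, which in neurons couples electrical activity to gene expression. The α2δ proteins encoded by Cacna2d1 and Cacna2d2 are extracellular, membrane-anchored subunits that bring channels to the cell surface and to the presynaptic terminal, and both bind gabapentin and pregabalin, drugs used against seizures and pain. The α2δ protein of Cacna2d1 has also been described as a neuronal receptor for thrombospondins, and loss of Cacna2d2 underlies the ducky mouse, which has ataxia and absence seizures. The vesicle protein encoded by Sv2a is the binding site of levetiracetam, another drug against seizures, and mice without it have severe seizures and die young.

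The promoters of the 4 genes are shown as background on the loci, since no probe sequence was at hand. They come from RefSeq, build GRCm38.p6, an assembly of a B6 substrain, and run from 250 bases before to 50 bases after the annotated start; the A/J sequence was not used here. Capitals mark GC boxes, searched as GGGCGG on both strands with overlapping matches counted.
Sv2a, chr3:96180977-96181276, plus strand: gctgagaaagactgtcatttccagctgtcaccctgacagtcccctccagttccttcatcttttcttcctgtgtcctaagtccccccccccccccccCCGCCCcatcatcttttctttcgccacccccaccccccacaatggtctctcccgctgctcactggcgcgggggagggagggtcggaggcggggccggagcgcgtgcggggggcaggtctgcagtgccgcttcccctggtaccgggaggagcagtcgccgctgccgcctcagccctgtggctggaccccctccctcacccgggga
Cacna2d2, chr9:107399630-107399929, plus strand: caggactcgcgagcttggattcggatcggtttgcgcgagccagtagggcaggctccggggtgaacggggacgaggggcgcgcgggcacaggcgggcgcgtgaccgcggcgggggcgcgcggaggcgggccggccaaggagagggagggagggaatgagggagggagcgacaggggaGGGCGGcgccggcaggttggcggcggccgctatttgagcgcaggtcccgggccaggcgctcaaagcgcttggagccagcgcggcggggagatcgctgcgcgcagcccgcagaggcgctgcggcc
Cacna2d1, chr5:15934441-15934740, plus strand: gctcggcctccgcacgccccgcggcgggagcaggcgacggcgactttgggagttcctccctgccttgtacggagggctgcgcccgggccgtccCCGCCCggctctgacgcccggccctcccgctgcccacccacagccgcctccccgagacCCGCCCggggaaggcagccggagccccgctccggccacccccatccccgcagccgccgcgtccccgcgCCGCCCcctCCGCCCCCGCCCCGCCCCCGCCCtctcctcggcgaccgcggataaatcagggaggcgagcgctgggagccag
Cacna1c, chr6:119108446-119108745, minus strand: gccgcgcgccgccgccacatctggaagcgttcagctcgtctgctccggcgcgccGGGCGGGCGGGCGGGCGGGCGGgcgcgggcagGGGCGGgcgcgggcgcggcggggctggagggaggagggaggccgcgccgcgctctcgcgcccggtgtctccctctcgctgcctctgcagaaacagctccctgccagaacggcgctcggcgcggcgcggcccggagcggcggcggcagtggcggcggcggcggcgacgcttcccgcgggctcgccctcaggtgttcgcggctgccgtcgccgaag
RefSeq lists 1 start each for Sv2a, Cacna2d2 and Cacna2d1 and 3 starts for Cacna1c, of which the richest in CpG is printed.

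These windows hold 17 CpG dinucleotides for Sv2a, 43 for Cacna2d2, 42 for Cacna2d1 and 57 for Cacna1c, where the median of 32851 promoters of the same length is 7. The other starts of Cacna1c have 7 and 3 CpG and no GC box. A GC box was found once for Sv2a and once for Cacna2d2, 7 times for Cacna2d1 and 6 times for the printed start of Cacna1c, and 35.7% of all promoters hold at least 1. TATAAA, the consensus of a TATA box, is in 13.6% of promoters, and TGACGTCA, the full cAMP response element, in 1.79%. Searched on both strands, these strings are absent from all 6 windows of the 4 genes, which says only that those letters are not there.

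The arrays as a set had some features that touch the results. Between 14415 and 15737 probes were detected per array, a probe being called detected where 1 minus its deposited detection score was under 0.01. Arrays of a line correlated with each other with mean r between 0.956 and 0.988. B6 brains 1 and 4 stood apart from their line: 16.3% and 19.6% of the 15876 probes kept for testing lay at least 0.5 log2 units from the mean of the other B6 brains. The remaining B6 brains had 1.98% to 3.65%. Differences of the 4 genes, and of some other genes, are therefore also given without these 2 brains. C10 congenic brain 3 had the lowest mean r of all 18 arrays, 0.956, with 8.82% of probes that far from its line and a median SD among beads of 12.4% of the signal. This median was 8.39% to 9.65% in C10 congenic brains 4 to 6, and 5.69% and 5.85% in brains 1 and 2. It was 5.53% to 7.88% in A/J and 5.26% to 8.56% in B6. In A/J, brains 1 and 6 had 8.09% and 5.99% of probes at least 0.5 log2 units from the mean of the other A/J brains. A/J brains 2 to 5 had 0.718% to 2.67%. A/J brain 6 had a signal of 7077 for Xist and of −7.3 for the Y-linked gene Eif2s3y, whereas every other brain had at most 23 for Xist and at least 1497 for Eif2s3y; the labels do not give the sex of any brain. The reading of probe IDs as Gene IDs is an inference: 82.6% of 11897 such numbers are Gene IDs in the reference table, where shifting every number by 1 to 50 gave 35.1% to 46.0%. Dcx, Syp and Syt1, genes of neurons, were detected in all 18 brains under it, but the probe named Snap25, another gene of neurons, was detected in none.

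Sv2a had its highest signal in B6. In the A/J brains 1 to 6 its signal, in the authors' background-subtracted intensity units, was 4926.9, 5256.9, 4787.2, 5220.3, 4595 and 4923. In the B6 brains it was 5780.8, 7034.9, 7105, 8358, 6693.6 and 6513.7, and in the C10 congenic brains 4533.6, 4260.3, 3585.4, 5040, 4696.7 and 5413.4. All 6 B6 brains were above every A/J and every C10 congenic brain, whereas the values of A/J and C10 congenic overlapped. The share of all probes for which lines separate in this way was not counted, here or below. The genes were picked for such differences, so nothing is read from the separation.

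The mean signal of Sv2a was 4952 ± 253 in A/J (SD, n = 6), 6914 ± 852 in B6 and 4588 ± 635 in C10 congenic, so the mean in B6 was 1.40 times that in A/J and 1.51 times that in C10 congenic. On the log2 scale, after a shift of 75 and quantile normalization, B6 minus A/J was 0.47 (SE 0.103) and C10 congenic minus B6 was −0.59, with the same SE since the 3 lines share 1 estimate of the spread. C10 congenic minus A/J was −0.12, with a 95% interval of −0.34 to 0.09. Brain 4, the brightest of the B6 brains for Sv2a, is one of those that stood apart, and brain 1, the other, was the dimmest; without both, B6 minus A/J was 0.46 and C10 congenic minus B6 was −0.58. In whole-brain RNA, fewer cells of a type and less RNA per cell cannot be told apart, here and in every result below.

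Cacna2d2 had the same order of lines as Sv2a, with B6 highest. Its signal in A/J brains 1 to 6 was 1543.3, 1910.6, 1720.4, 2115.9, 1725.1 and 1965.4. In B6 it was 3149.3, 2187.1, 2377.9, 2208.5, 2467.4 and 2261.4, and in C10 congenic 1989.1, 2258.7, 1381.2, 1597.8, 1312.3 and 1748.6. The 6 B6 brains were above every A/J brain, and 5 of the 6 C10 congenic brains were below every B6 brain, C10 congenic brain 2 being the exception. C10 congenic brains 1 and 2, the brightest of that line, had an SD among beads of 3.01% and 2.36% of the Cacna2d2 signal. Brains 3 to 6 had 7.89% to 14.3%. Whether this bears on the difference from B6 was not tested.

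Mean signals of Cacna2d2 were 1830 ± 206 in A/J (SD, n = 6), 2442 ± 363 in B6 and 1715 ± 363 in C10 congenic, a ratio of B6 to A/J of 1.33. The log2 difference was 0.40 for B6 minus A/J (SE 0.125) and −0.51 for C10 congenic minus B6. C10 congenic minus A/J was −0.11, with an interval of −0.37 to 0.15. B6 brain 1 lay far above the other B6 brains, and without brains 1 and 4 the first difference was 0.34 (SE 0.128) and the second −0.45.

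Cacna2d1, the other measured α2δ gene of the set, was lowest in B6 and highest in A/J. Its signal in A/J brains 1 to 6 was 1504, 1820.7, 1835.6, 1946.9, 1610.2 and 1615.3. In B6 it was 960.3, 1571.8, 1670.5, 858.8, 1538.7 and 1254.8, and in C10 congenic 1680.8, 1727, 1623.8, 1841.2, 1356.6 and 1312.4. The lines overlapped: 3 B6 brains were below every A/J brain, and the 2 lowest of these were brains 1 and 4.

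The mean signal of Cacna2d1 was 1722 ± 170 in A/J (SD, n = 6), 1309 ± 341 in B6 and 1590 ± 211 in C10 congenic. The log2 difference was −0.41 for B6 minus A/J (SE 0.139), −0.12 for C10 congenic minus A/J and 0.29 for C10 congenic minus B6. Most of the difference rested on the 2 B6 brains that stood apart. Without them B6 minus A/J was −0.18 (SE 0.112) and C10 congenic minus B6 was 0.06.

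Cacna1c, the pore of the L-type channel, was highest in A/J. The probe that detected it had a signal of 445, 541.2, 515.2, 493.9, 548 and 461.4 in A/J brains 1 to 6. In B6 it was 235.2, 413.6, 452.9, 332.6, 416.4 and 282.9, and in C10 congenic 311.4, 344.4, 391, 369.3, 249 and 372.9. All 6 C10 congenic brains and 5 of the 6 B6 brains were below every A/J brain, B6 brain 3 being the exception, and B6 and C10 congenic overlapped widely.

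Mean signals of Cacna1c were 501 ± 41.9 in A/J (SD, n = 6), 356 ± 85.8 in B6 and 340 ± 52.3 in C10 congenic, so the mean in A/J was 1.41 times that in B6 and 1.47 times that in C10 congenic. The log2 difference was −0.44 for B6 minus A/J (SE 0.123) and −0.48 for C10 congenic minus A/J, and these comparisons share the A/J brains. C10 congenic minus B6 was −0.04, with an interval of −0.29 to 0.21. Without B6 brains 1 and 4 the 3 differences were −0.31, −0.48 and −0.16. The second probe of Cacna1c was detected in none of the 18 brains, with signals from −39 to 27.6, and gives no second reading of the gene.

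**Figure D1:**
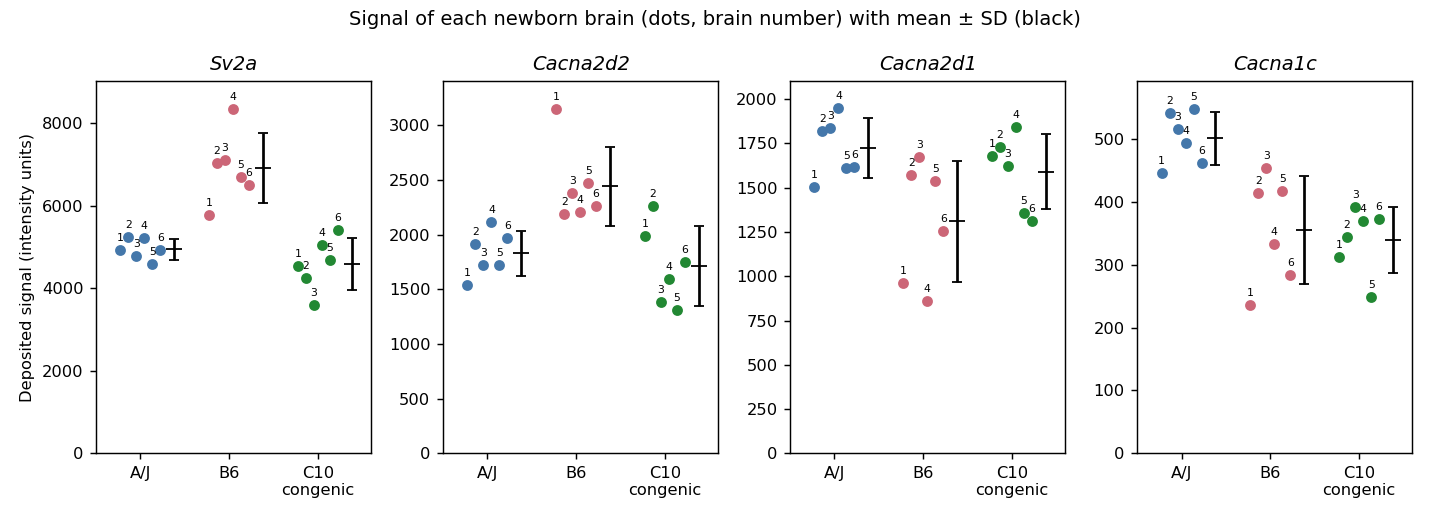
Deposited signal (intensity units, linear axis from 0) of the detected probe of each gene in the 18 newborn brains, 1 panel per gene; dots are brains, labelled by brain number, and black bars are the mean ± SD of the 6 brains of a line. B6 lies above A/J without overlap for Sv2a and Cacna2d2, B6 brains 1 and 4 are the lowest points for Cacna2d1, and the C10 congenic brains lie below A/J for Cacna1c.

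The spread among brains of a line also differed by line. The coefficient of variation was smallest in A/J for all 4 genes, at 5.12% for Sv2a, 11.2% for Cacna2d2, 9.88% for Cacna2d1 and 8.37% for Cacna1c. In B6 it was 12.3%, 14.8%, 26.0% and 24.1%, and in C10 congenic 13.8%, 21.2%, 13.3% and 15.4%, in the same order of genes. The SD among the 26 to 56 beads behind a value was 2.30% to 11.5% of the signal for Sv2a, 2.36% to 14.3% for Cacna2d2, 2.65% to 12.8% for Cacna2d1 and 4.48% to 13.9% for Cacna1c.

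In limma's moderated fit over all 15876 kept probes, with Benjamini-Hochberg adjustment, a probe was called at an adjusted p under 0.05. The detected probes of all 4 genes were called for B6 against A/J, where 16.1% of all probes were called, 8.13% as higher in B6 and 8.01% as lower. For C10 congenic against B6 those of Sv2a and Cacna2d2 were called, both lower in C10 congenic, against 6.14% of all probes called lower, 5.99% called higher and 12.1% called in either direction. For C10 congenic against A/J none of the 4 was called, and 0.932% of all probes were, 0.441% as higher and 0.491% as lower in C10 congenic. Over the 18 fits that each left out 1 brain, the call for B6 against A/J was lost in 10 for Cacna2d1 and in 5 for Cacna2d2. Without B6 brains 1 and 4 it was lost for both and for Cacna1c, whereas for Sv2a it held in every fit. For C10 congenic against A/J, Cacna1c was called in 3 of the 18 fits. Because the genes were picked from these comparisons, these calls are no independent test, and nothing is read from them. For scale, the median size of the log2 difference over all probes was 0.16 for B6 against A/J, 0.12 for C10 congenic against A/J and 0.14 for C10 congenic against B6, and 13.3%, 3.93% and 12.3% of probes reached a size of 0.4.

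The sizes of the differences depended on single brains to different degrees. Over the 18 fits that each left out 1 brain, B6 minus A/J for Sv2a ran from 0.41, without B6 brain 4, to 0.52, without B6 brain 1, and C10 congenic minus B6 from −0.64 to −0.53. For Cacna2d2, B6 minus A/J ran from 0.33, without B6 brain 1, to 0.44, without A/J brain 4. That of Cacna2d1 ran from −0.48, without B6 brain 3, to −0.30, without B6 brain 4. Cacna1c had B6 minus A/J differences from −0.50, without B6 brain 3, to −0.35, without B6 brain 1, and C10 congenic minus A/J differences from −0.52 to −0.41. Without C10 congenic brain 3, which has the lowest Sv2a of all 18 brains, C10 congenic minus A/J was −0.06 in place of −0.12 for Sv2a.

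**Figure D2:**
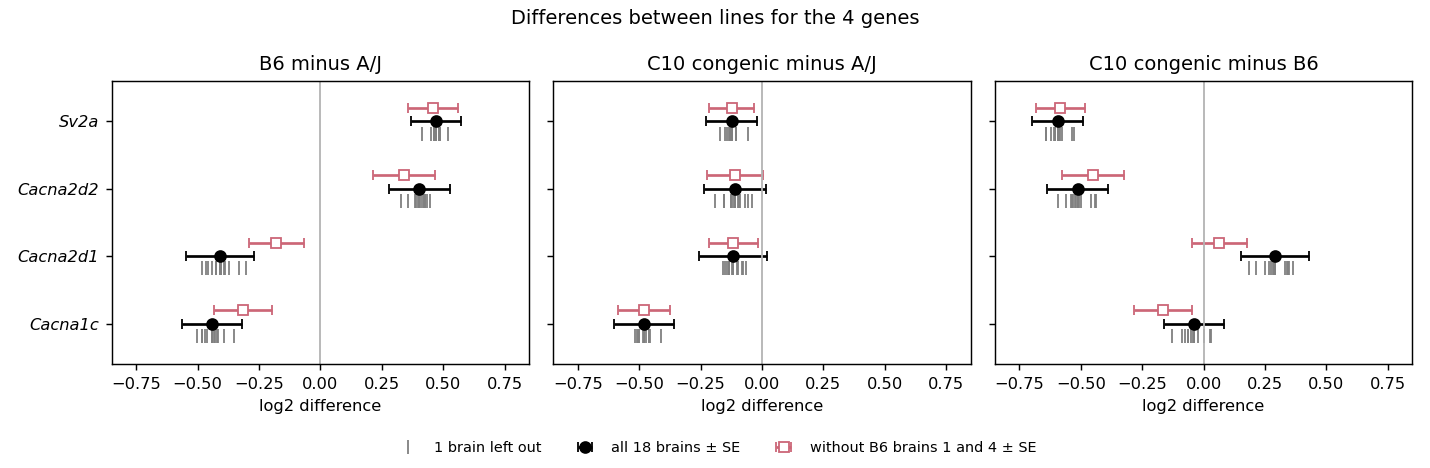
Log2 difference between lines (x axis) of the 4 genes in the 3 comparisons; filled circles with bars are the fit of all 18 brains ± SE, open squares the fit without B6 brains 1 and 4 ± SE, and grey ticks the 18 fits that leave out 1 brain. For B6 minus A/J, Cacna2d1 moves from −0.41 to −0.18 without those brains, and Sv2a from 0.47 to 0.46.

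Within a line, no pair of the 4 genes passed a test of varying together from brain to brain. The 6 pairs of genes were correlated over the 6 brains of each line, 18 relations in all, and Pearson's r ran from −0.76 to 0.77. In exact two-sided permutation tests 0 of the 18 had an unadjusted p under 0.05, and the lowest adjusted p was 0.8. The highest r was that of Cacna2d1 with Cacna1c in B6, r = 0.771 and rho = 0.771 (n = 6, exact permutation p = 0.0986 and 0.103). In A/J and C10 congenic the same pair had r = 0.449 and r = 0.362 (exact permutation p = 0.351 and 0.514). Without the 2 brains farthest from the median of Cacna2d1, r over the remaining 4 was 0.995 in B6, 0.318 in A/J and −0.021 in C10 congenic. An r over 4 brains shifts easily and was not tested: that of Sv2a with Cacna2d1 in B6 went from −0.145 to 0.793. Sv2a and Cacna2d2, both highest in B6, had r = −0.759 within B6 (rho = −0.6, exact permutation p = 0.132 and 0.242), where brain 1 had the lowest Sv2a and the highest Cacna2d2, and r was −0.303 without the 2 brains farthest from the median of Sv2a. The smallest p that 6 brains allow is 0.00139.

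The other genes of the same protein families were next compared in the same fit. The list of voltage-gated calcium channel subunits holds 23 further genes, of which 13 had a named probe and 5 a probe detected in at least 6 arrays: Cacna1b, the pore of the N-type channel, Cacnb2 and Cacnb3, cytoplasmic β subunits, Cacna2d3, another α2δ gene, and Cacng3, a γ subunit best known for binding AMPA receptors. None of the 5 was called in any comparison by limma, against 16.1%, 0.932% and 12.1% of all probes.

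For B6 minus A/J their log2 differences and 95% intervals were −0.12 (−0.40 to 0.17) for Cacna1b, −0.16 (−0.38 to 0.06) for Cacnb2 and 0.19 (−0.04 to 0.41) for Cacnb3. They were 0.11 (−0.08 to 0.30) for Cacna2d3 and 0.12 (−0.12 to 0.37) for Cacng3, and limma's adjusted p ran from 0.279 for Cacnb3 to 0.628 for Cacna1b. The interval of Cacna2d3 lies below the 0.40 of Cacna2d2 and above the −0.41 of Cacna2d1, whereas those of Cacnb3 and Cacna1b reach differences close to 0.4 in size. For C10 congenic minus B6 the lowest adjusted p of the 5 was 0.199, for Cacnb3, at −0.23 (−0.45 to 0.00). For C10 congenic minus A/J the differences of the 5 genes ran from −0.09 for Cacna1b to 0.06 for Cacna2d3. Their median was 0.11 for B6 minus A/J, −0.07 for C10 congenic minus A/J and −0.05 for C10 congenic minus B6, and over all kept probes the medians were −0.02, −0.00 and 0.02.

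Mean signals of these genes between lines were as follows. Cacnb3 had 282 ± 38.3 in A/J (SD, n = 6), 332 ± 47.3 in B6 and 273 ± 50.8 in C10 congenic. Cacna2d3 had 293 ± 15.1, 324 ± 43.4 and 311 ± 37.8 in the same order, and Cacnb2 had 278 ± 26.6, 244 ± 53.7 and 259 ± 8.6. Cacng3 had 185 ± 26.4, 210 ± 45.0 and 175 ± 42.5. Cacna1b, detected in 10 of the 18 arrays, had 95.6 ± 12.03, 83.8 ± 24.8 and 88.3 ± 35.6, close to the detection limit, where the shift of 75 lessens log2 differences. A second probe of Cacna1b, detected in 5 arrays and so not tested, had 71.9 ± 21.6, 68.2 ± 20.6 and 88.4 ± 26.6, highest in C10 congenic. Cacnb2 was lowest in B6 brain 4, at 154.7, where the other B6 brains ranged from 212.7 to 297.6. The probe of Cacna1a, the pore of the P/Q-type channel, was detected in 4 arrays and that of Cacng7 in 3, too few to be tested. In the SV2 family the only other gene with a named probe was Sv2c, detected in 1 array, so Sv2a stands alone there.

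**Figure D3:**
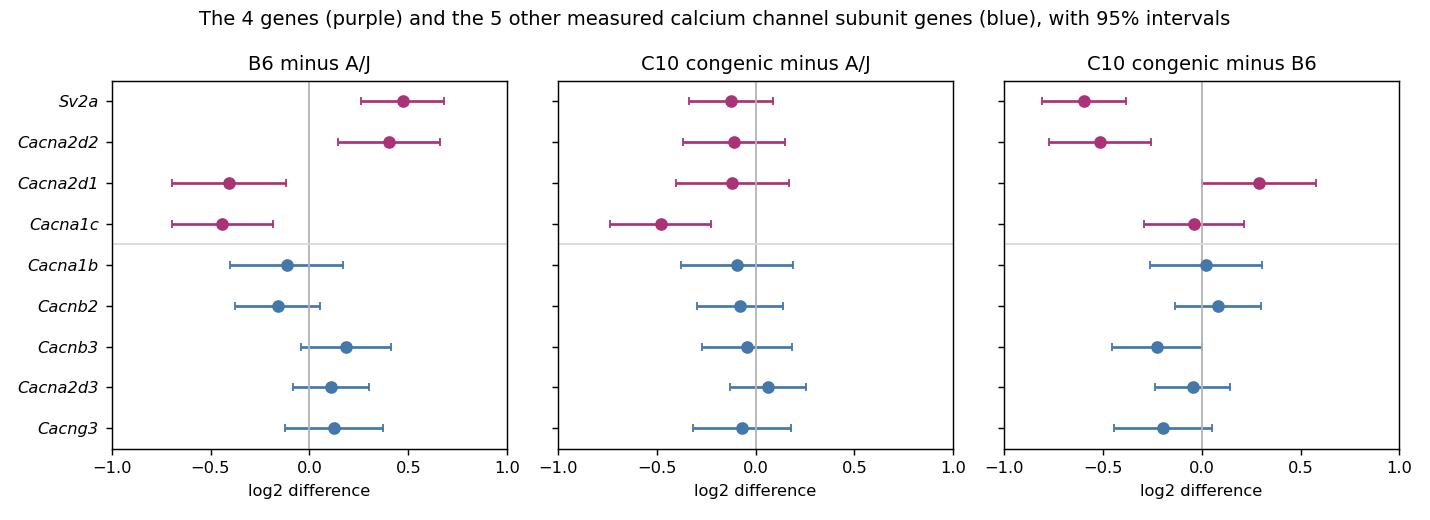
Log2 difference between lines (x axis) with 95% intervals for the 4 genes, in purple, and the 5 other measured calcium channel subunit genes, in blue, in the 3 comparisons. For B6 minus A/J the intervals of the 5 blue genes all include 0, with differences from −0.16 to 0.19.

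The machinery of vesicle release, to which Sv2a belongs by location, was covered by a list of 21 further genes, 10 of them measured. For B6 against A/J, limma called 1 of 10 higher and 0 lower, where 8.13% and 8.01% of all probes were called. That gene was Slc17a7, the vesicular glutamate transporter of cortical excitatory neurons, whose signal averaged 298 ± 83.9 (B6) and 180 ± 137 (A/J; SD over 6 brains). Its log2 difference was 0.64 (SE 0.201, limma's adjusted p = 0.0302). A/J brain 1, at 455.4, was above every B6 brain, and the call was lost in 8 of the 18 fits that left out 1 brain, those without A/J brain 2, 3, 4, 5 or 6 or B6 brain 2, 3 or 4. For C10 congenic against B6, 2 of 10 were lower, where 6.14% of all probes were: Slc17a7 at −0.76 (limma's adjusted p = 0.0123), and Cplx2, a complexin that binds the fusion complex, at −0.38 (limma's adjusted p = 0.0224), whose call was lost without B6 brain 3, B6 brain 4 or C10 congenic brain 2. For C10 congenic against A/J, 0 of 10 were called.

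Syt1, Syp, Syn1, Syn2, Rab3a, Rims2 and Pclo were called in no comparison. Syt1, the calcium sensor of release, and Syp, an abundant vesicle protein, had B6 minus A/J differences of 0.07 (−0.17 to 0.30) and −0.03. Those of these named genes ran from −0.23 for Rims2 to 0.15 for Syn1, where Sv2a had 0.47. Over the 10 genes the median was 0.06 for B6 minus A/J, −0.03 for C10 congenic minus A/J and −0.04 for C10 congenic minus B6.

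Partners and regulators of calcium channels were covered by 19 genes, 6 of them measured, and limma called 0 of 6 in each comparison, where 16.1%, 0.932% and 12.1% of all probes were called. Among them, Thbs2, a thrombospondin, had −0.22 for B6 minus A/J (limma's adjusted p = 0.197), and Cachd1, a relative of the α2δ proteins, had 0.03 (limma's adjusted p = 0.888). Other targets of seizure drugs were covered by 20 genes, 7 of them measured, of which 1 was called lower for B6 against A/J (8.01% of all probes) and 1 higher for C10 congenic against B6 (5.99% of all probes). That gene, Gria1, an AMPA receptor subunit, was lower in B6 than in A/J, with 1043 ± 157 against 1316 ± 93.4 (SD, n = 6), at −0.32 (SE 0.0991, limma's adjusted p = 0.0273). It was higher in C10 congenic, at 1415 ± 109, than in B6, at 0.42 (limma's adjusted p = 0.00506). B6 brains 1 and 4 had the lowest values, 847.8 and 854.3, and without them the first difference was −0.19 (limma's adjusted p = 0.159) and the second 0.29 (limma's adjusted p = 0.0418). The first call was also lost without A/J brain 1, 3 or 6. These Gria1 values are those of its brighter kept probe. The dimmer kept probe, detected in 17 arrays, averaged 196 ± 81.6 in A/J (SD, n = 6), 186 ± 76.3 in B6 and 199 ± 51.3 in C10 congenic. Scn1a, a sodium channel of interneurons, had −0.51 for B6 minus A/J and missed the threshold (limma's adjusted p = 0.0588). No other of the 7 was called, and none was for C10 congenic against A/J.

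Markers of cell types moved between lines too, and their part in the results above was not tested. Of 7 neuronal markers 6 had a named probe and 5 were measured, Snap25 being undetected. The summed signal of the 6 was 27101 to 30303 in A/J, 23117 to 32661 in B6 and 26553 to 31369 in C10 congenic. B6 brain 4 had the lowest sum, with Dcx at 6706.8 where the other B6 brains had 15269.7 to 19021.1. Rbfox3, a nuclear protein of mature neurons, was the only neuronal marker called, at 0.37 for B6 minus A/J (limma's adjusted p = 0.0431), and its call was lost in 9 of the 18 fits that left out 1 brain, those without A/J brain 1, 3, 5 or 6 or B6 brain 1, 2, 3, 4 or 5. The other measured neuronal markers had B6 minus A/J differences of 0.20 for Map2, −0.21 for Tubb3, −0.03 for Syp and −0.02 for Dcx. In B6 brain 4, which had the highest Sv2a and the lowest Cacna2d1, Rbfox3 was at 6857.5, above the 5186 to 6254 of the other B6 brains.

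Among markers of other cells, microglial sums over 2 of 5 genes were 473 to 559 in A/J, 330 to 534 in B6 and 438 to 795 in C10 congenic. Csf1r, a receptor of microglia, was higher in C10 congenic than in B6, at 0.56 (limma's adjusted p = 0.0112). B6 brain 1 had the lowest value, 105.8, and C10 congenic brain 5 the highest, 568.5. The call held in all 18 fits that left out 1 brain. Without B6 brains 1 and 4 the difference was 0.395 (limma's adjusted p = 0.0492). C1qa, the other measured microglial marker, was at 0.05 for C10 congenic minus B6 over all brains and was not called. Red blood cell sums over 3 of 5 genes were 33787 to 53024 in A/J, 9353 to 23232 in B6 and 24068 to 50783 in C10 congenic, so this sum was lowest in B6. Its members did not move together: for B6 minus A/J, Hba-a1 was at −1.38 and Hbb-b2 at −5.79, whereas Hbb-b1 was at 2.91, averaging 1618 ± 382 (B6) against 149 ± 42.1 (A/J; SD over 6 brains), and limma called all 3. Of the astrocyte markers Aqp4 was detected, and Gfap, Slc1a2 and S100b were detected in no brain, and Olig2, of the oligodendrocyte lineage, and Acta2, of smooth muscle, in none. Skeletal muscle, choroid plexus and pituitary markers had no named probe. Dividing progenitor sums over 4 of 6 genes were 920 to 1238 in A/J, 721 to 1000 in B6 and 562.5 to 1222 in C10 congenic. Its 3 measured genes, Nes, Sox2 and Mki67, were at −0.27, −0.30 and −0.0005 for B6 minus A/J. Pecam1, the only measured endothelial marker, was at 0.04. None of these was called in any comparison, against 16.1%, 0.932% and 12.1% of all probes.

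Lastly, the 4146 other genes with a kept probe were ranked by how closely their values over the 18 brains followed each of the 4 genes, measured as the root-mean-square distance of log2 signals centred on their own mean. This ranking uses the same differences between lines and is a description. Nearest to Sv2a, whose own spread was 0.29 log2 units, were Exoc8, a subunit of the exocyst, at a distance of 0.136, Sh3gl2, which encodes endophilin of synaptic vesicle endocytosis, at 0.143, and Bpnt2 at 0.155. Sh3gl2 had a mean signal of 5803 ± 459 in A/J (SD, n = 6), 7828 ± 879 in B6 and 6075 ± 866 in C10 congenic. Nearest to Cacna2d2 were Tra2b, a splicing factor, at 0.144, Dcakd at 0.178 and Enah, an actin regulator of growth cones, at 0.181, and Tra2b shared the high value of B6 brain 1.

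Nearest to Cacna2d1 were Galntl6 at 0.155, a dim probe detected in 6 of 18 arrays, Tbk1, a kinase of innate immunity and autophagy, at 0.162, and Ercc6l2 at 0.166, all low in B6 brain 4. Tbk1 lies on chromosome 10, and its mean signal was 1964 ± 161 in A/J (SD, n = 6), 1375 ± 215 in B6 and 1760 ± 230 in C10 congenic. Among the nearest to Cacna1c were Cbx7, of the Polycomb group, at 0.173, and Trex1, an exonuclease, at 0.177. Cbx7 had 243 ± 35.9 in A/J (SD, n = 6), 170 ± 31.8 in B6 and 180 ± 43.9 in C10 congenic. Without quantile normalization each of these named genes except Bpnt2 was again among the nearest 3. Between the 4 genes themselves the distance was 0.263 for Sv2a and Cacna2d2 and 0.246 for Cacna2d1 and Cacna1c, and from 0.437 to 0.507 for the 4 pairs across these.

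**Figure D4:**
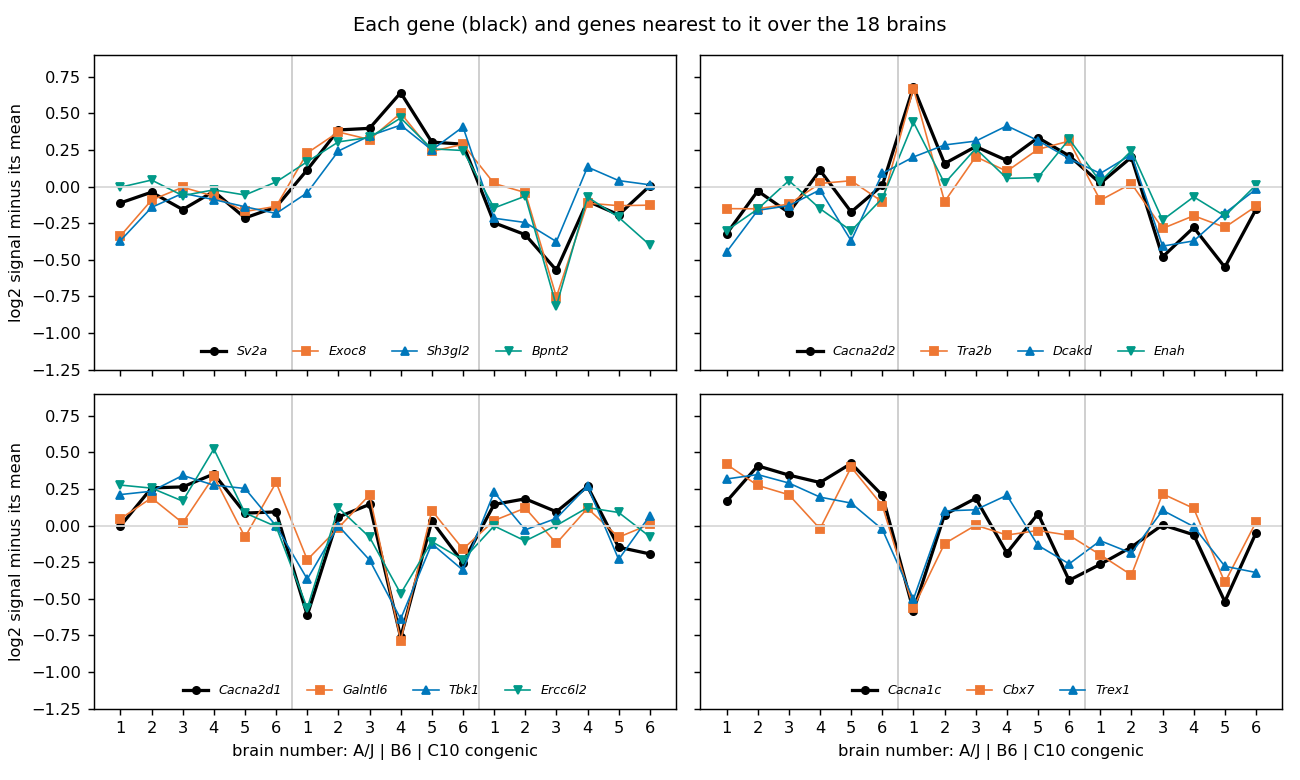
Quantile normalized log2 signal minus its mean over the 18 brains (y axis) for each gene, in black, and genes among the 3 nearest to it, in colour (3 each, or 2 for Cacna1c), with the brains of A/J, B6 and C10 congenic from left to right on the x axis. The genes near Cacna2d1 are low in B6 brain 4, and those near Cacna1c are lower in most B6 and C10 congenic brains than in A/J.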

How the data were processed

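Per the labels, total RNA of 18 whole brains was reverse transcribed, transcribed to biotinylated cRNA and hybridised to Sentrix Mouse-6 arrays. Per the submitters' processing notes, BeadStudio made the deposited signal, an intensity on a linear scale with its background subtracted and a lowest value of −59. Its quartiles were nearly equal on all arrays. The detection score deposited by the authors was read as 1 minus a detection p. The sources used here give neither the version of BeadStudio nor a genome build.

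The deposited signal was shifted by 75, taken to log2 and quantile normalized. Besides 567 control probes, probes not detected (p under 0.01) in at least 6 arrays were left out, leaving 15876. They were fitted with limma 3.58.1 (R 4.3.3; lmFit, eBayes), 1 coefficient per line over all 3 lines, two-sided, with Benjamini-Hochberg adjustment over all kept probes. Brains were grouped by their titles, as separate animals per the series text, and no 2 arrays were identical. A gene is its brightest kept probe. Correlations used scipy 1.17.1. The fit was tested on simulated data with 15876 probes: for B6 against A/J it recovered 56% of changes of 0.5 and 99% of changes of 1.0 on the log2 scale. Simulated noise was independent between arrays, no array stood apart, 100 probes were changed by each size, and normalization was not repeated. The recovery need not hold for the real arrays.

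The text names every measured gene of the calcium channel and SV2 lists, genes of the other lists called at least once, and for each of the 4 genes the nearest 3, except items not reported here; other names were chosen after their values were seen. Members and lists were chosen with earlier results of these data known. The 18 hippocampal arrays of the series were not used, because levels of 100 probe sets common to both array types were uncorrelated under their names (r = 0.0357). Strain variants under probes, and whether brains shared a BeadChip, were not tested, since the sources used here do not give them.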

Additional observations from a re-analysis of the deposited data

Results flagged for a closer look

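In 51 groups of 6 brains, Dixon's test of the highest and lowest value at the 95% level picked out 5, where chance alone gives about 1 in 20. B6 brain 1 had a Cacna2d2 signal of 3149.3, and the other B6 brains 2187.1 to 2467.4. The same brain had a Csf1r signal of 105.8, below the 223.9 to 269.4 of the others. C10 congenic brain 5 had a Csf1r signal of 568.5, above 287.6 to 362.8. C10 congenic brain 3 had a Gria1 signal of 1633.5, above 1334.9 to 1396.5. A/J brain 1 had a Slc17a7 signal of 455.4, above 99.1 to 161.8.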

How the results depend on the processing

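The differences of the 4 genes kept their sign under every alternative run, except that of Cacna1c for C10 congenic minus B6, near 0, which ran from −0.13 to 0.03 as single brains were left out. Over those 18 fits, called probes numbered 2001 to 2750 for B6 against A/J, 17 to 314 for C10 congenic against A/J and 1466 to 2129 for C10 congenic against B6. The second of these counts was 17 to 36 without any one of A/J brains 1 to 5 or C10 congenic brain 2 or 6, 57 to 108 without B6 brain 2, 3, 5 or 6 or C10 congenic brain 3, 4 or 5, and 228 to 314 without A/J brain 6, B6 brain 1 or 4, or C10 congenic brain 1. The 4 genes gave 2 to 4, 0 to 1 and 2 calls, and the 28 other list genes 0 to 3, 0 and 2 to 5, where the fit of all brains gave 2, 0 and 3.

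Replicate numbers are shared by the lines, and the labels do not say whether same-numbered brains were processed together. The deviations of same-numbered brains had r from −0.0912 to 0.334, over 0.1 in 8 of 18 pairs, and 6 of 18 brains correlated best with their own number. Whether same-numbered brains shared a batch was not tested. The fit with the replicate block called 2727, 223 and 2080 probes, the last 2 in C10 congenic against A/J and against B6, and gave Slc17a7 an adjusted p of 0.0521 for B6 against A/J in limma. For C10 congenic against A/J, called probes moved from 148 to 1 with no filter on detection, 273 with only the 2 lines in the fit, 602 without B6 brains 1 and 4 and 968 with limma array weights, and for B6 against A/J to 4866 with the weights. The latter 2 settings were chosen after seeing the data. Calls among the 4 genes for B6 against A/J were 1 with no filter and 1 without B6 brains 1 and 4. For C10 congenic against A/J they were 1 with the 2 lines alone, 1 with the block, 1 without those brains and 1 with array weights. Calls among the other list genes for B6 against A/J were 1 with no filter, 1 with the 2 lines, 1 with the block, 1 without those brains and 4 with weights. They were 1 and 3 for C10 congenic against A/J, without those brains and with weights, and 5 for C10 congenic against B6 without those brains. With no filter the adjustment covers more probes, and the SE of Sv2a for B6 minus A/J was 0.110 in place of 0.103. What caused the changes in calls was not tested. The number of arrays and the distance of a signal from background limit precision, most for Cacna1b and Galntl6.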
